A study of Mus musculus with 9 samples.

Results

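The 10 listed marker genes of T cells and cytotoxic lymphocytes were followed in mouse lung: Thy1, Cd3d, Cd3e, Cd3g, Cd2, Lck, Gzma, Prf1, Klrd1 and Il2rb. The members were every probe set whose single gene symbol in the array's probe annotation was 1 of these genes, which gave 10 of the 12422 probe sets that are not controls, for 9 of the 10 genes. No probe set carried Lck as its only symbol, and Lck was not analysed here. Cd3d had 2 probe sets and each other gene had 1.

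The data are total RNA of C57BL6 lung on 9 expression arrays from an asthma model in which ovalbumin (OVA), a protein of egg white, was the allergen. There were 3 groups of 3 arrays: OVA challenge plus an agonist of the prostaglandin E2 receptor EP3; mice challenged with OVA alone; and mice challenged with saline. The titles of both OVA groups give 24 h, and the labels do not give the dose or timing of the agonist, the sensitization, the age or sex of the mice, or whether an array stands for 1 mouse. What the p-values measure is thus spread between arrays, which may be technical.

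T cells recognise antigen through a receptor whose signal passes through the CD3 chains, and the kinase Lck starts that signal. CD2 and Thy1 are surface proteins of T cells, although mouse Thy1 is also made by some fibroblasts, neurons and innate lymphoid cells. Cytotoxic T cells and natural killer (NK) cells kill with perforin, which opens the target membrane, and with granzymes, which enter through it. In allergic asthma, helper T cells that react to the allergen drive the airway inflammation.

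Values are intensities on a common linear scale, on which an intensity of 44.7 (the 40th percentile of all values) served as the detection limit. Each array had 59.6% to 60.6% of its probe sets above that limit. Probe sets above it on at least 3 of 9 arrays were tested, 7920 in all. The number of arrays, 3 a group, limits the precision. Lung was represented as labelled: all 8 measured markers of lung epithelium were above the limit on at least 1 array, and their summed intensity was 37800 to 38280 in OVA plus agonist lung, 27076 to 33565 in OVA lung and 34452 to 41417 in saline lung.

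Of the 10 member probe sets, 7 were bright enough to test: Thy1, 1 probe set of Cd3d, Cd2, Gzma, Prf1, Klrd1 and Il2rb. In limma's test none of the 7 passed an adjusted p of 0.05 in any of the 3 comparisons. Of all tested probe sets, 5.08% were called higher and 4.42% lower in OVA than in saline lung, 1.25% higher and 1.50% lower in OVA plus agonist than in OVA lung, and 0.0379% higher and 0.0379% lower in OVA plus agonist than in saline lung. At an unadjusted limma p of 0.05, 1 of 7 (Thy1) was below the threshold in each of the first 2 comparisons and 0 of 7 in the third. Of all 7920 tested probe sets, 2302, 1919 and 611 were below it in these 3 comparisons. Thy1 was also the only one of the 7 whose arrays did not overlap between OVA and saline and between OVA plus agonist and OVA. None of the 7 was free of overlap between OVA plus agonist and saline. Over all tested probe sets 37.6%, 29.9% and 13.7% had non-overlapping groups in these 3 comparisons. The first 2 comparisons share the OVA arrays.

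**Figure D1:**
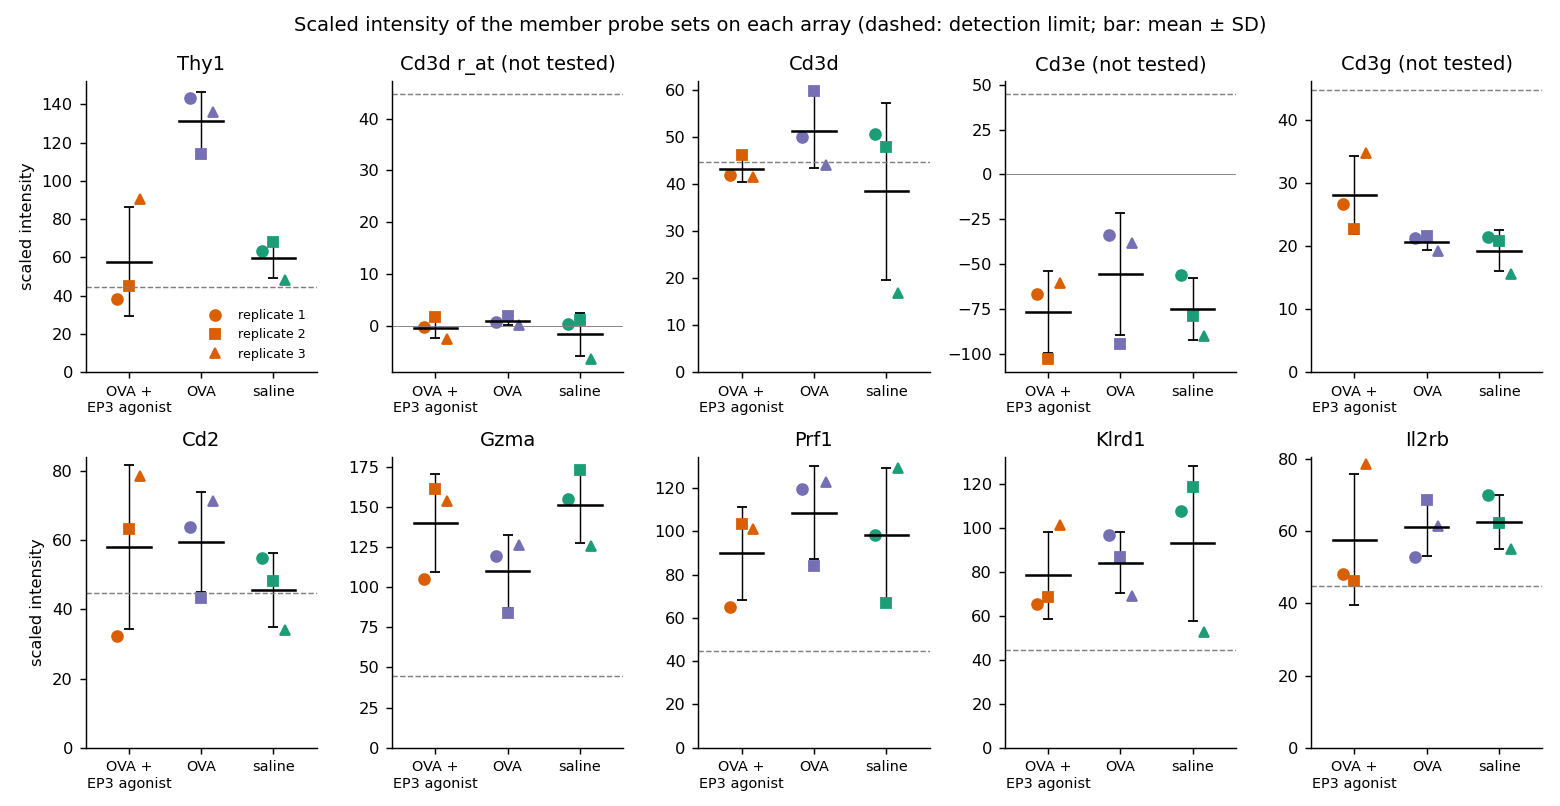
Scaled intensity (y axes, each with its own range) of the 10 member probe sets on the 9 arrays, by group; points are arrays with 1 symbol per replicate number, black bars are group means with SD, and the dashed line is the detection limit of 44.7. The OVA arrays of Thy1 (114 to 143) lie above all others, whereas the groups of the other 6 tested members overlap, and Cd3e, Cd3g and the second Cd3d probe set stay below the limit on every array.

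The CD3 chains among the members, which are part of the T cell receptor complex, gave little signal. Cd3e (102971_at), the epsilon chain, read −66.5, −102.9 and −60.7 in OVA plus agonist lung, −33.7, −94.6 and −38.2 in OVA lung and −56.1, −78.8 and −90 in saline lung. Its intensity was below 0 on all 9 arrays, so its probe set gives no measure of the gene in these samples. Cd3g (100001_at), the gamma chain, read 26.7, 22.7 and 34.8 in OVA plus agonist lung, 21.3, 21.5 and 19.1 in OVA lung and 21.5, 20.7 and 15.5 in saline lung. The agonist arrays lay above all 6 others, but every value was under the detection limit, and the probe set did not enter the test. In a fit of all 12422 probe sets with no filter on dim ones, Cd3g differed by 0.54 on the log2 scale between OVA plus agonist and saline lung (limma adjusted p = 0.586) and by 0.42 between OVA plus agonist and OVA lung (limma adjusted p = 0.289).

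Among the member CD3 chains (Cd3d, Cd3e and Cd3g), Cd3d, the delta chain, was nearest to detection. Its tested probe set (92683_at) read 41.7, 46.2 and 41.4 in OVA plus agonist lung, 50, 59.7 and 44.1 in OVA lung and 50.6, 47.9 and 16.7 in saline lung. Only 5 of the 9 arrays were above the limit, and saline replicate 3 was far below the other 8. The log2 change between OVA and saline lung was 0.56 ± 0.39 (SE, n = 3 arrays each, 95% interval −0.35 to 1.48, limma adjusted p = 0.379), which is within the spread between arrays. Between OVA plus agonist and OVA lung it was −0.24 ± 0.39 (95% interval −1.15 to 0.67, limma adjusted p = 0.746). The other Cd3d probe set (161863_r_at) lay between −6.43 and 1.79 on the 9 arrays.

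Besides their place in the receptor, these genes share a chromosome: Cd3g, Cd3d and Cd3e lie next to each other on mouse chromosome 9, where Thy1 also lies. Promoter windows of 300 bases, from 250 before to 50 after a RefSeq start site (GRCm38.p6), were at hand for 5 of the 9 measured genes: Cd3d, Cd3e, Cd3g, Gzma and Prf1. ETS factors, which take part in T cell gene expression, bind sites built around a GGAA core. The letters GGAAGT, searched on both strands (ACTTCC on the other), occur in 3 of these 5 genes, and in 23.8% of all 32851 windows of the same length. The motif was chosen after these windows were seen. The 4 matches, in Cd3d, Cd3e and Prf1, are shown as stretches of 60 bases. The motif is in capitals, and each stretch is read 5′ to 3′ on the strand of its gene. The Cd3d stretch is chr9:44981560-44981619 on the plus strand, the Cd3e stretch chr9:45009597-45009656 on the minus strand, and the Prf1 stretches are chr10:61297611-61297670 and chr10:61297701-61297760 on the plus strand.
Cd3d: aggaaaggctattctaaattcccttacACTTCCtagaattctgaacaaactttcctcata
Cd3e: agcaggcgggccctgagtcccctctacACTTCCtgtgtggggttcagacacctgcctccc
Prf1, distal: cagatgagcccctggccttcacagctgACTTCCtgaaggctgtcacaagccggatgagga
Prf1, proximal: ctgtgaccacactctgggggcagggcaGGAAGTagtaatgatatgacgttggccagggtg
The letters are a description of the sequence and not a bound site. The windows of Cd3g and Gzma hold no such match.

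Thy1 (99057_at), a glycoprotein anchored in the membrane of T cells, had the largest differences of the 7 tested members in both comparisons with OVA lung. It read 38, 44.8 and 90.6 in OVA plus agonist lung, 143, 114 and 136 in OVA lung and 63, 68.1 and 47.9 in saline lung. The 3 OVA arrays were the 3 highest of the 9, and the arrays of OVA plus agonist lung spanned those of saline lung. Between OVA and saline lung the means were 131 ± 15.2 and 59.7 ± 10.5 (SD, n = 3 each), a log2 change of 1.14 ± 0.31 (SE, 95% interval 0.42 to 1.87) or 2.21-fold, with a limma adjusted p of 0.0606 that missed the threshold. Between OVA plus agonist and OVA lung the means were 57.8 ± 28.6 and 131 ± 15.2 (SD, n = 3 each), a log2 change of −1.28 ± 0.31 (SE, 95% interval −2.01 to −0.55), with a limma adjusted p of 0.069. Against saline lung, OVA plus agonist gave −0.14 ± 0.31 (SE, 95% interval −0.87 to 0.59, limma adjusted p = 0.943).

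The adjusted p of Thy1 moved across the threshold with the settings. Without agonist replicate 3, the agonist array with the highest Thy1, the limma adjusted p was 0.0103 for OVA against saline and 0.0056 for OVA plus agonist against OVA (log2 change −1.66). Raising every value under the detection limit to it, as for agonist replicate 1, gave 0.0347 for OVA against saline and 0.0471 for OVA plus agonist against OVA (log2 change −1.21). Over the 17 alternative settings in which it could be tested, the adjusted p ran from 0.0103 to 0.172 for OVA against saline and from 0.0056 to 0.211 for OVA plus agonist against OVA, and it passed in 4 and 2 of them.

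**Figure D2:**
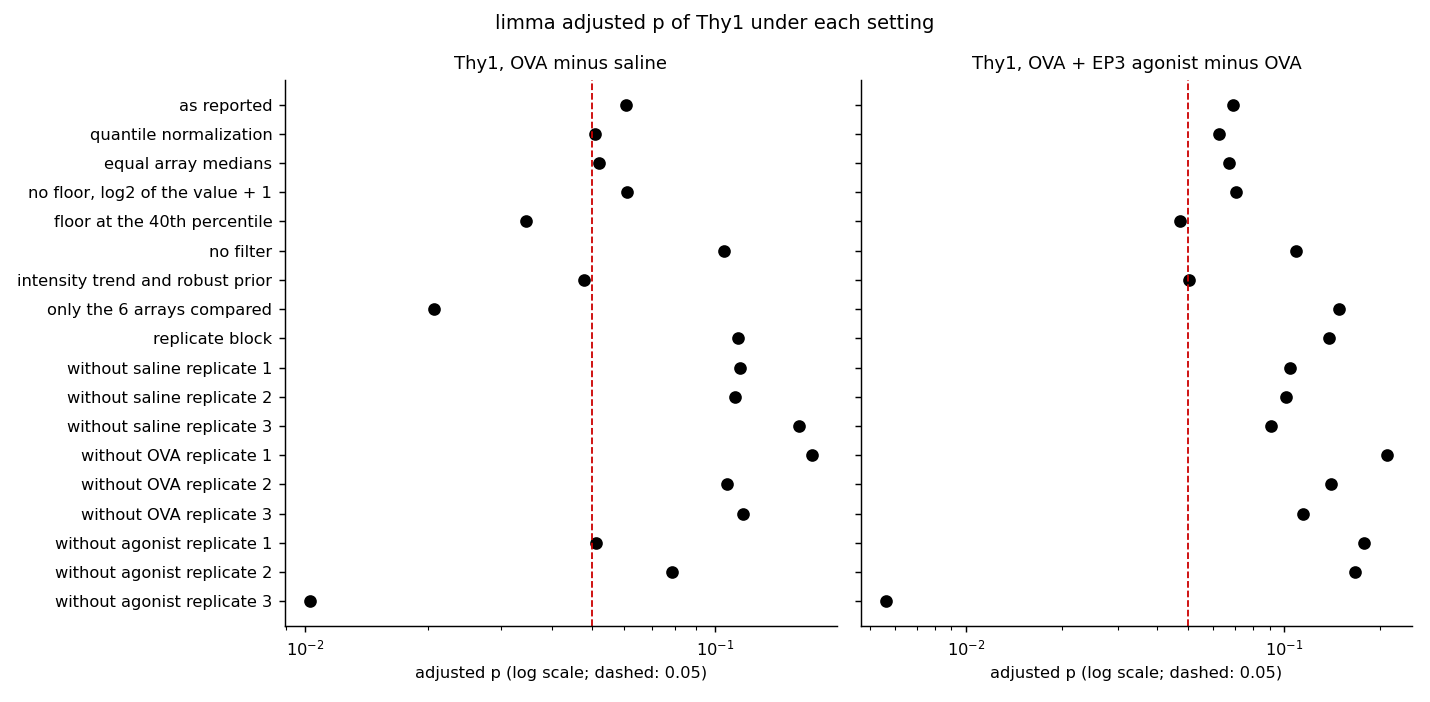
Adjusted p of Thy1 from limma (x axis, log scale) under the reported setting and 17 alternatives (rows) for OVA against saline (left) and OVA plus agonist against OVA (right); the dashed line is 0.05. The values straddle the line, with the lowest at 0.0103 and 0.0056 when agonist replicate 3 is left out.

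General markers of white blood cells were also highest in OVA lung on 2 of its 3 arrays. The summed intensity of 11 pan-leukocyte genes was 5416, 5492 and 8436 in OVA plus agonist lung, 8700, 8850 and 7481 in OVA lung and 5365, 5261 and 4768 in saline lung. Agonist replicate 3 was thus close to the OVA arrays in this sum, as it was the highest of the agonist arrays for Thy1. The part of these cells in the Thy1 difference was not tested. Fewer cells of a type and less RNA per cell cannot be told apart in whole lung RNA. Of 8 fibroblast markers, by the brightest probe set of each gene, 0 rose and 2 fell between OVA and saline lung, but other probe sets of the collagens Col3a1 and Col1a1 rose. On its dimmest probe set Col3a1 averaged 63.7 ± 28.9 in OVA plus agonist lung, 163 ± 16.4 in OVA lung and 53.7 ± 7.19 in saline lung (SD, n = 3 each), with a limma adjusted p of 0.028 between OVA and saline and 0.0558 between OVA plus agonist and OVA. All 3 of its tested probe sets had a log2 change above 0 between OVA and saline lung (1.61, 1.04 and 0.86) and below 0 between OVA plus agonist and OVA lung (−1.47, −1.36 and −1.07), the same signs as Thy1. By brightest probe set, 3 of the 8 fibroblast markers were above 0 and 5 below between OVA and saline lung. Between OVA plus agonist and OVA lung 5 were above 0 and 3 below, so most of the list had the opposite signs. On the dimmer of its probe sets Col1a1 averaged 335 ± 63.5 in OVA plus agonist lung, 484 ± 54.9 in OVA lung and 278 ± 54.2 in saline lung, with a limma adjusted p of 0.041 between OVA and saline and 0.143 between OVA plus agonist and OVA. The brighter Col1a1 probe set did not pass in either comparison (limma adjusted p = 0.0985 and 0.0924). The sum of the 8 fibroblast markers was 6113 to 6824 in OVA plus agonist lung, 6684 to 8251 in OVA lung and 6586 to 7872 in saline lung. The part of fibroblasts in the Thy1 difference was likewise not tested.

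Likeness over the 9 arrays, by Pearson's r of the log2 intensities, was ranked among 7077 tested probe sets with 1 gene symbol, members left out. Those most like Thy1 were Ppp2r5c, a regulatory subunit of protein phosphatase 2A (r = 0.975), and probe sets for the antibody heavy chains Ighm (r = 0.97) and Ighg3 (r = 0.968). These values describe 9 arrays in 3 groups, which all compared probe sets share.

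Cd2 (95373_at), an adhesion receptor of T and NK cells, differed less. It read 32.2, 63.2 and 78.6 in OVA plus agonist lung, 63.9, 43.3 and 71.2 in OVA lung and 54.7, 48.1 and 34 in saline lung. In each group 1 array was under the detection limit and 2 were above, and the groups overlapped. The log2 change was 0.38 ± 0.36 (SE, n = 3 each, 95% interval −0.46 to 1.21, limma adjusted p = 0.521) between OVA and saline lung and −0.1 ± 0.36 (95% interval −0.93 to 0.73, limma adjusted p = 0.888) between OVA plus agonist and OVA lung.

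Of the effectors of killing, Gzma encodes granzyme A, a tryptase of cytotoxic granules. It read 105.3, 161 and 154 in OVA plus agonist lung, 119, 84.1 and 126 in OVA lung and 155, 173 and 126 in saline lung. All 9 arrays were above the limit, and OVA replicate 2 was the lowest of the 9. OVA and saline met at replicate 3 of each, both at 126. The log2 change was −0.47 ± 0.23 (SE, n = 3 each, 95% interval −0.99 to 0.05, limma adjusted p = 0.208) between OVA and saline lung and 0.35 ± 0.23 (95% interval −0.18 to 0.87, limma adjusted p = 0.383) between OVA plus agonist and OVA lung. The name of its probe set (102995_s_at) marks probes that can match more than 1 transcript.

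Prf1 (93931_at), perforin, read 65.2, 103 and 101 in OVA plus agonist lung, 119, 83.9 and 123 in OVA lung and 98.3, 66.9 and 129 in saline lung. The saline arrays alone covered nearly the whole range, so that the groups could not be separated. Its log2 change was 0.18 ± 0.29 (SE, n = 3 each, 95% interval −0.5 to 0.85, limma adjusted p = 0.724) between OVA and saline lung and −0.28 ± 0.29 (95% interval −0.96 to 0.39, limma adjusted p = 0.59) between OVA plus agonist and OVA lung.

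Klrd1 (93677_at) encodes CD94, which pairs with NKG2 proteins as a receptor of NK cells. It read 65.7, 68.7 and 101 in OVA plus agonist lung, 96.8, 87.1 and 69.3 in OVA lung and 108, 119 and 52.8 in saline lung. Saline held both the highest and the lowest value of the 9. Between OVA and saline lung its log2 change was −0.07 ± 0.33 (SE, n = 3 each, 95% interval −0.83 to 0.69, limma adjusted p = 0.903), and between OVA plus agonist and OVA lung −0.12 ± 0.33 (95% interval −0.87 to 0.64, limma adjusted p = 0.853).

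Il2rb (100764_at), the receptor chain through which interleukins 2 and 15 act on T and NK cells, read 48.2, 46.1 and 78.6 in OVA plus agonist lung, 52.8, 68.7 and 61.6 in OVA lung and 70, 62.4 and 55 in saline lung. All arrays were above the limit, and agonist replicate 3 was the highest of the 9. Its log2 change was −0.03 ± 0.22 (SE, n = 3 each, 95% interval −0.54 to 0.47, limma adjusted p = 0.931) between OVA and saline lung. Between OVA plus agonist and OVA lung it was −0.12 ± 0.22 (95% interval −0.63 to 0.39, limma adjusted p = 0.777). These intervals, and those of Gzma, Prf1, Klrd1, Cd2 and Cd3d, include no change as well as changes in either direction. Equal levels were thus not shown.

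Between OVA plus agonist and saline lung, the 7 log2 changes ran from −0.19 for Klrd1 to 0.33 for Cd3d, 5 below 0 and 2 above. Their limma adjusted p lay between 0.881 and 0.953. Over the 7, the median log2 change was 0.18 between OVA and saline lung (all tested probe sets, −0.08), −0.12 between OVA plus agonist and OVA lung (all, 0.06) and −0.12 between OVA plus agonist and saline lung (all, −0.003). Cd3e and Cd3g are not among these 7.

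**Figure D3:**
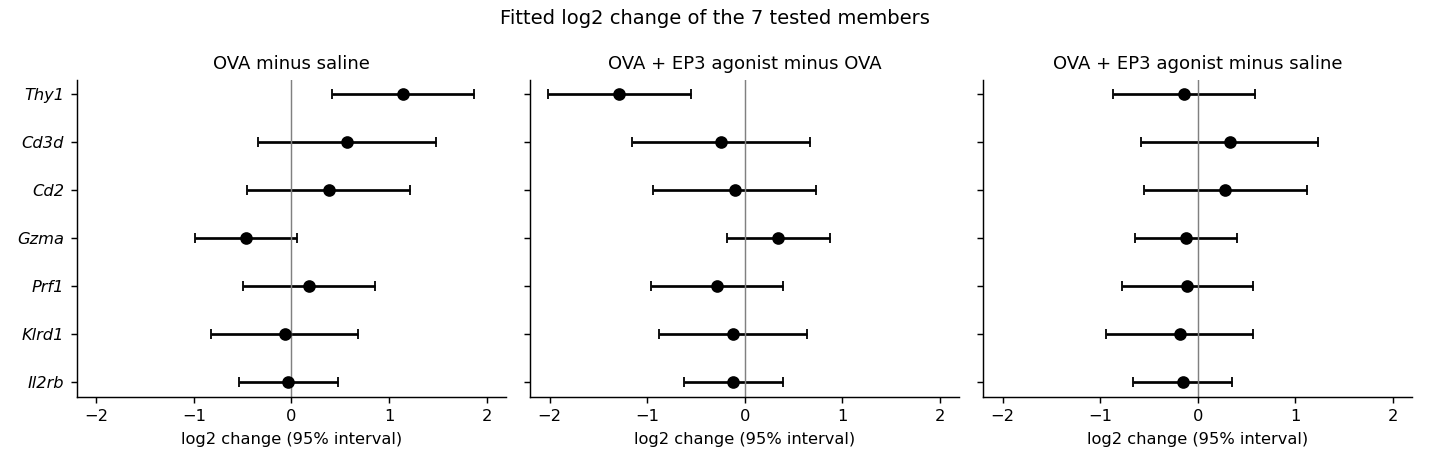
Fitted log2 change (x axis) of the 7 tested members (rows) in the 3 comparisons (panels), with 95% intervals not corrected for multiple tests; the grey line is 0. Only the intervals of Thy1 in the first and second panels lie clear of 0, at 0.42 to 1.87 and −2.01 to −0.55.

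Some arrays were the lowest or highest of their group for several members. How often this was so over all tested probe sets was not counted. Saline replicate 3 was the lowest saline array for 6 of the 7 tested members, all but Prf1, for which it was the highest. Agonist replicate 1 was the lowest agonist array for 5 of the 7 and the highest for 0, and agonist replicate 3 was the highest for 4 (Thy1, Cd2, Klrd1 and Il2rb). Marker sums of other blood cells also differed between arrays of a group. The sum of 9 B cell markers was 1363, 1874 and 2087 on agonist replicates 1, 2 and 3, 1935 to 2139 in OVA lung and 1715 to 2058 in saline lung. The sum of 10 neutrophil markers was 5867, 2052 and 6342 on agonist replicates 1, 2 and 3, 4061, 4367 and 3271 in OVA lung and 1804, 1902 and 1918 in saline lung. Of the 8 neutrophil markers tested, 1 rose and 0 fell between OVA and saline lung, with a median log2 change of 0.04. The higher OVA sum thus does not stand for a rise of that list as a whole. The part of these cells in the members' values was not tested.

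By the same measure of likeness over 9 arrays, the other tested members each had 3 closest probe sets. Those of Cd3d were Esrra (r = 0.969), Slc1a6 (r = 0.968) and Cxcr5 (r = 0.967), and those of Cd2 were Nup188 (r = 0.934), Cd40 (r = 0.911) and Cstf2t (r = 0.900). Cxcr5 and Cd40 are receptors found on B cells and other immune cells. Gzma was closest to Ldb2 (r = 0.928), Zswim1 (r = 0.926) and Tm2d2 (r = 0.926), and Prf1 to Tomm20 (r = 0.928), Gps1 (r = 0.889) and Slc35a1 (r = 0.872). Klrd1 was closest to Cyp27b1 (r = 0.943), Madcam1 (r = 0.941) and Orm3 (r = 0.905), and Il2rb to Gcsh (r = 0.969), Slc10a3 (r = 0.868) and Loxl1 (r = 0.868). The members themselves were left out of this ranking, so it cannot say whether they follow each other. None of these probe sets was for a gene of the T or NK cell lists described below.

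Other genes of the same cells were described from lists, with the brightest tested probe set of each gene. Of 25 listed genes of the T cell receptor complex and its signalling, 19 were on the array and 12 were tested, and 0 rose and 0 fell in limma's test in any comparison. Their median log2 change was 0.11 between OVA and saline lung and −0.38 between OVA plus agonist and OVA lung. The coreceptors and the receptor kinase were picked for their roles after the values were seen. Cd4, the coreceptor of helper T cells, read 255, 310 and 173 in OVA plus agonist lung, 217, 157 and 205 in OVA lung and 150, 209 and 203 in saline lung. Cd8a, the coreceptor of cytotoxic T cells, stayed between 13.5 and 35.3, under the detection limit on all 9 arrays. Zap70, the kinase that binds the CD3 chains, read 93.6, 106 and 145 in OVA plus agonist lung, 164, 155 and 152 in OVA lung and 139, 128 and 187 in saline lung on its tested probe set. The agonist arrays of Zap70 lay under all 3 OVA arrays, a log2 change of −0.48 that did not pass (limma adjusted p = 0.187), and those of Cd4 overlapped with both other groups.

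Of 28 listed genes of T cell subsets and activation, 18 were on the array and 9 tested. Between OVA and saline lung 2 rose, 0 fell and 7 did not pass. Cd44, an adhesion receptor of activated and memory T cells that many other cells also carry, averaged 157 ± 18.4 in OVA lung and 80.1 ± 15.7 in saline lung (SD, n = 3 each), 1.98-fold higher (limma adjusted p = 0.0226). Slfn2, a schlafen protein of T cells and myeloid cells, averaged 218 ± 21.4 in OVA lung and 120 ± 21.3 in saline lung, 1.83-fold higher (limma adjusted p = 0.047), while its other probe set changed by 0.69 on the log2 scale (limma adjusted p = 0.314). None of the 9 passed between OVA plus agonist and OVA lung.

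Of 40 listed genes of NK cells and cytotoxic granules, 29 were on the array and 15 tested, and between OVA and saline lung 1 rose, 1 fell and 13 did not pass. The 29 include 5 at or below 0 on every array: Gzmc, Klrb1a, Fasl, Ifng and Ctsw. Tyrobp, a signalling adaptor of NK cells and of myeloid cells, averaged 617 ± 66.6 in OVA lung and 362 ± 30.2 in saline lung (SD, n = 3 each), 1.71-fold higher (limma adjusted p = 0.0419). Gzmg, a granzyme, was lower in OVA than in saline lung, at 31.7 ± 1.02 and 44.4 ± 2.97 (limma adjusted p = 0.0372), and higher in OVA plus agonist than in OVA lung, at 48.2 ± 6.31 and 31.7 ± 1.02 (limma adjusted p = 0.0444). All OVA arrays of Gzmg were under the detection limit and the others near it, and both calls were lost when lower values were raised to that limit. The median log2 change of the 15 was 0.0043 between OVA and saline lung and 0.0056 between OVA plus agonist and OVA lung. Of 12 listed genes of interleukin 2 and 15 signalling, 7 were tested and 0 passed in any comparison.

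The pan-leukocyte list holds genes that most white blood cells express. All 11 genes were tested, and between OVA and saline lung 3 rose, 0 fell and 8 did not pass, with a median log2 change of 0.66 against −0.08 over all tested probe sets. Cd52, a surface peptide of lymphocytes and other white cells, averaged 1782 ± 188 in OVA lung and 864 ± 99.5 in saline lung (SD, n = 3 each), 2.06-fold higher (limma adjusted p = 0.0308). Lcp1, the actin bundler plastin of white cells, was 1.78-fold higher (limma adjusted p = 0.0348), and Laptm5, a lysosomal protein of blood cells, 1.47-fold higher (limma adjusted p = 0.0459). All 11 had a log2 change below 0 between OVA plus agonist and OVA lung, with a median of −0.36, and 0 passed. Ptprc, the leukocyte antigen CD45, is in this list and in the receptor signalling list, as is Vav1.

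Lists of other cells gave the surroundings of these values. Between OVA and saline lung, 7 of 10 tested macrophage and dendritic cell markers rose and 1 fell, with a sum of 9695 to 9877 in OVA lung and 7447 to 8237 in saline lung. For OVA plus agonist against OVA lung, 1 rose and 2 fell, and 9 of the 10 had a log2 change below 0. Their sum was 8480 to 9865 in OVA plus agonist lung. Of 8 tested B cell markers 1 rose and 0 fell between OVA and saline lung. Blnk, an adaptor of B cell receptor signalling, was 2.16-fold higher in OVA lung (limma adjusted p = 0.0407). The other tested Blnk probe set did not pass, with a log2 change of 1.38 ± 0.96 (SE, limma adjusted p = 0.383). Of 10 measured genes of eosinophils, mast cells and basophils only 3 were bright enough to test, and 0 passed. Endothelial markers were tested for all 8 genes. Between OVA and saline lung 5 fell and 0 rose, all 8 with a log2 change below 0, and their sum was 6134 to 6742 in OVA lung and 8184 to 8829 in saline lung. Between OVA plus agonist and OVA lung 2 rose and 0 fell, with a sum of 8263 to 8452 in OVA plus agonist lung. Beside the collagens above, of the 2 fibroblast markers that fell between OVA and saline lung, Pdgfra, a growth factor receptor, was 1.55-fold lower (limma adjusted p = 0.0239) and Dcn, the proteoglycan decorin, 1.42-fold lower (limma adjusted p = 0.0239). Pdgfra was 1.58-fold higher in OVA plus agonist than in OVA lung (limma adjusted p = 0.042). The other tested Pdgfra probe set passed in neither comparison. Its log2 change was −0.48 between OVA and saline lung (limma adjusted p = 0.0829) and 0.07 between OVA plus agonist and OVA lung (limma adjusted p = 0.805). Each list gene named as passing lost its call when any 1 saline array, OVA replicate 1 or OVA replicate 2 was left out, and under the replicate block. Those of Slfn2, Tyrobp, Cd52, Lcp1, Laptm5, Blnk and Col1a1 were also lost with no filter on dim probe sets, and those of Blnk, Col1a1, Gzmg and Pdgfra (both for OVA plus agonist against OVA) with only the 6 arrays compared. Apart from Gzmg, the adjusted p of the probe sets that had passed stayed at or under 0.146 in all settings run.

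**Figure D4:**
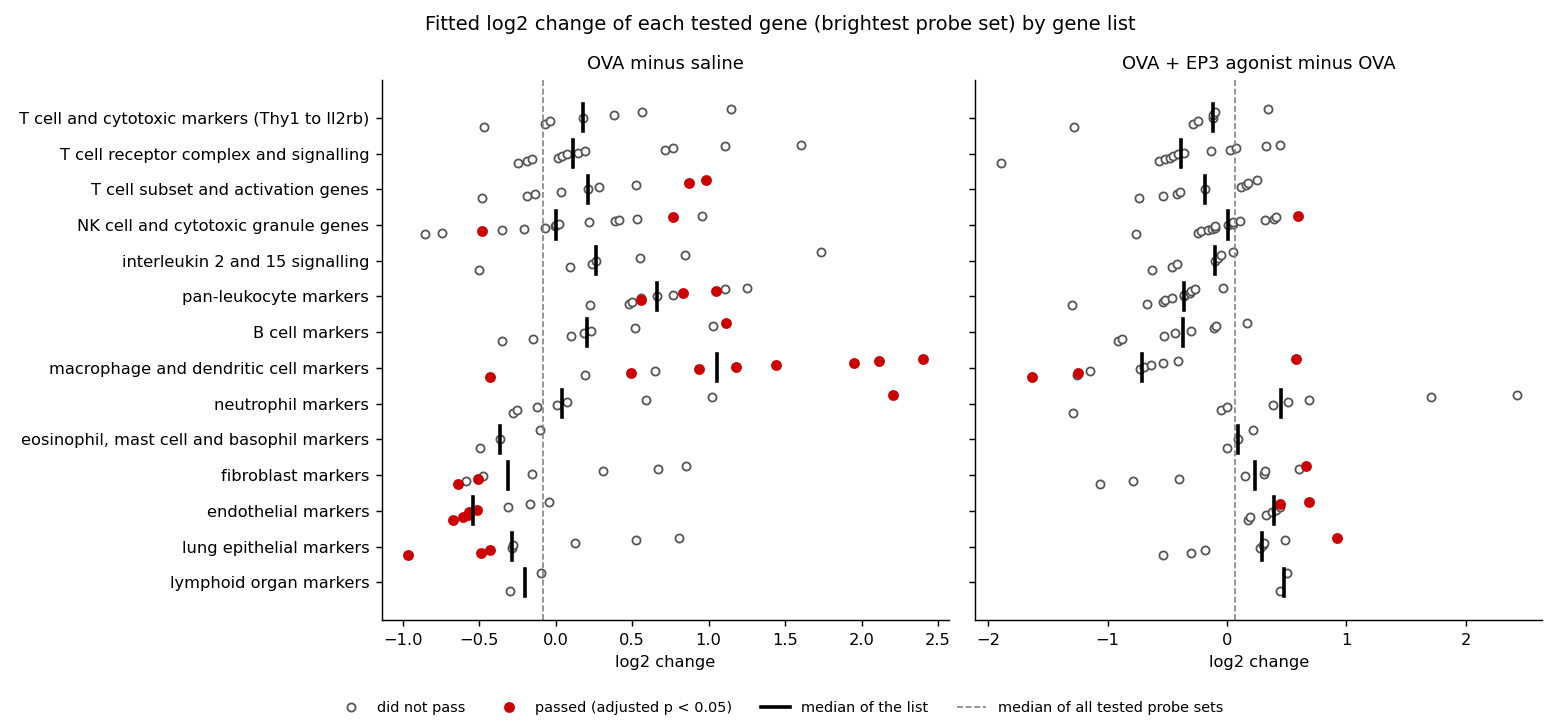
Fitted log2 change (x axes) of each tested gene by list (rows) between OVA and saline (left) and between OVA plus agonist and OVA (right); red points passed limma's test, open points did not, black bars are list medians and the dashed line is the median of all tested probe sets. In the left panel the pan-leukocyte median lies at 0.66 and that of the T cell and cytotoxic markers at 0.18.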

How the data were processed

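The deposited values are 1 intensity per probe set and array, on a linear scale and below 0 for some probe sets on every array. The sources used here do not give what the authors subtracted, how probes were summarized or the software. Each array was scaled to a common 2% trimmed mean (factors 0.741 to 1.29), values under the 20th percentile (3.10) were raised to it, and log2 was taken. The 66 control probe sets among 12488 were dropped. A single fit of all 9 arrays in limma 3.58.1 under R 4.3.3, by lmFit with eBayes, gave the 3 comparisons, with 6 residual degrees of freedom, two-sided, adjusted by Benjamini-Hochberg over 7920 probe sets.

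Gene symbols are those of the platform annotation, and all 9 member genes were found by gene ID in RefSeq (GRCm38.p6) under the same symbol. Members and lists were chosen with earlier results of these data known. Named genes are all members, up to 4 passing genes of a list and comparison by brightest probe set (Col3a1 and Col1a1 were added after their values were seen), and for each member the 3 most correlated probe sets; macrophage, neutrophil, endothelial and epithelial lists are given by counts or sums. Alternatives covered scaling, floor, filter, prior, arrays used and a replicate block.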

Additional observations from a re-analysis of the deposited data

How the results depend on the processing

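In 18 alternatives, the 6 tested members other than Thy1 passed in none of those they entered (with the filter at the 60th percentile, Gzma alone). The count of members called, 0 in each comparison, became 1 (Thy1) for OVA against saline with the floor at the 40th percentile, a robust prior with intensity trend, or only the 6 arrays compared, and 1 for agonist against OVA with the floor at the 40th percentile. Leaving out single arrays it ran from 0 to 1 in both, the 1 being without agonist replicate 3.

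Deviations from the group means correlated at r −0.139 to 0.169 between arrays with the same replicate number, over 0.1 in 2 of 9 pairs. Between arrays with different numbers they correlated at r −0.154 to 0.149, over 0.1 in 2 of 18 pairs. With 3 arrays a group, these values cannot decide whether the numbers pair the arrays. With the replicate block 50, 14 and 2 probe sets passed for OVA against saline, agonist against OVA and agonist against saline, instead of 752, 218 and 6, and 0 members. Agonist against OVA gave 361 with the floor at the 40th percentile, 445 with the filter at the 60th, 453 with the intensity trend and 18 with only 6 arrays, and agonist against saline gave 3 with the filter at the 60th. Leaving out single arrays gave 80 to 857, 7 to 526 and 5 to 16. The cause of these differences in count was not tested. The fits that left out an array, and those of only 6 arrays, also held fewer arrays.

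Of 21 member changes, the signs of 10 turned in some setting, none of them called there. With the floor at the 40th percentile, Cd2 differed by 0.0423 for agonist against OVA and Cd3d by −0.077 for agonist against saline. Leaving out single arrays, the log2 change for OVA against saline ran from −0.0734 to 0.40 for Prf1, −0.44 to 0.15 for Klrd1 and −0.12 to 0.0656 for Il2rb. For agonist against OVA it ran from −0.37 to 0.28 for Cd2 and −0.36 to 0.0208 for Il2rb. For agonist against saline it ran from −0.52 to 0.11 for Thy1, −0.19 to 0.60 for Cd3d, −0.25 to 0.0696 for Gzma, −0.36 to 0.12 for Prf1 and −0.55 to 0.0313 for Klrd1. The alternatives for named list genes, collagens included, were added after their values were seen, and the replicate block ended all of their calls. Signals near the detection limit bound what Cd3d and Cd2 can show.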
